A study of Mus musculus with 12 samples.

Results

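The let-7 family was followed through 12 small-RNA libraries of mouse embryonic gonads by its 9 mature 5p microRNAs, let-7a-5p, let-7b-5p, let-7c-5p, let-7d-5p, let-7e-5p, let-7f-5p, let-7g-5p, let-7i-5p and miR-98-5p. These 9 rows were taken by name from a table of 616 microRNAs, and every one of them was detected in all 12 libraries. The libraries came from CD1 embryos and cover primordial germ cells (PGC), the precursors of eggs and sperm, and gonadal somatic cells (SC), the cells that surround them. Each fraction was sampled in females and males on embryonic day 11.5 (E11.5), day 12.5 (E12.5) and day 13.5 (E13.5). Every combination has 1 library, and no genotype or agent differs between them. Each library pools the gonads of many embryos: per the labels' protocols, gonads freed of the mesonephros were dissociated and germ cells were held on a magnetic column by anti-CD15 beads, so SC is the fraction that the beads did not hold. Only RNA shorter than 100 bases was taken. With 1 library per combination, the p-values below measure only the spread between these libraries.

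The let-7 microRNAs are a conserved family named after a gene that times larval development in Caenorhabditis elegans, and in mammals they accumulate as cells leave the pluripotent or progenitor state. They lower the output of mRNAs that pair with their seed (bases 2 to 8), among them Hmga2, Lin28a and members of the Ras family. The RNA-binding protein LIN28, which is made in pluripotent cells and in early mouse PGCs, binds let-7 precursors, in part at a GGAG motif in the loop of the hairpin, and holds back their processing. LIN28 is not measured in small-RNA libraries, and its part in the values below was not tested.

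The mature sequences are given because the members are told apart by few bases, and this bears on every value below. The sequences come from RefSeq (GRCm38.p6, the genome build named in the submitters' processing notes), which held all 9 members, and the capitals mark the seed.
let-7a-5p: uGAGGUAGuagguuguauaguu
let-7b-5p: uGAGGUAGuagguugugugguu
let-7c-5p: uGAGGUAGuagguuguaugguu
let-7d-5p: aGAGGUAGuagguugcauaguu
let-7e-5p: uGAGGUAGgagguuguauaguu
let-7f-5p: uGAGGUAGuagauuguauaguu
let-7g-5p: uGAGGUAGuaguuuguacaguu
let-7i-5p: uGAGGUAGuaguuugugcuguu
miR-98-5p: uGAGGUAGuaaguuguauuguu
All 9 have 22 bases and the seed GAGGUAG. Counting from 1 at the 5′ end, 4 of the 36 pairs of members differ by a single base. These are let-7a-5p and let-7c-5p (A19G), let-7a-5p and let-7e-5p (U9G), let-7a-5p and let-7f-5p (G12A), and let-7b-5p and let-7c-5p (G17A). The way reads were assigned between such members is not given in the sources used here, so a sequencing error or an alignment that allows mismatches could move reads from one of these members to another.

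The 9 members are made from 12 hairpins, and all coordinates are of GRCm38.p6. On chromosome 13, minus strand, Mirlet7a-1 (chr13:48538179-48538272), Mirlet7f-1 (chr13:48537829-48537917) and Mirlet7d (chr13:48536012-48536114) lie within 2260 bases. On chromosome 15, plus strand, Mirlet7c-2 (chr15:85706603-85706697) and Mirlet7b (chr15:85707319-85707403) lie within 800 bases in the span of the long non-coding RNA Lncppara. On the X chromosome, plus strand, Mirlet7f-2 (chrX:151912346-151912428) and Mir98 (chrX:151913214-151913321) lie within 975 bases in the span of the protein-coding gene Huwe1. Mirlet7c-1 (chr16:77599657-77599750, plus strand) has Mir99a as its neighbour, Mirlet7e (chr17:17830352-17830444, plus strand) lies beside Mir125a in the span of Spaca6, and Mirlet7a-2 (chr9:41536716-41536811, plus strand) shares the long non-coding RNA Mir100hg with Mir100. Mirlet7g (chr9:106178840-106178927, plus strand) is in the span of Wdr82, and Mirlet7i (chr10:122985640-122985724, minus strand) is in the span of no annotated host gene. Reads of let-7a-5p, let-7c-5p and let-7f-5p each have a pair of hairpins as possible sources, which the mature sequence cannot tell apart.

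The stretch between the arms of each hairpin was searched for GGAG on the RNA's own strand. It was found in 9 of the 12 let-7 hairpins, in capitals below, and was absent from those of let-7b, let-7c-2 and miR-98. Among all mouse hairpins with both arms annotated, 8.07% of 644 such stretches held the motif, and 24.6% of the 61 stretches that are 23 to 36 bases long, as those of let-7 are; both backgrounds include let-7 itself. In SC, at equal totals, the log2 difference between E13.5 and E11.5 was 1.53 for miR-98-5p, whose hairpin lacks the motif. It was larger for let-7a-5p (1.96), let-7f-5p (1.86), let-7d-5p (1.85) and let-7i-5p (1.66), whose hairpins hold it. It was smaller for let-7g-5p (1.38) and let-7e-5p (0.91), whose hairpins hold it too. A relation between motif and difference was not tested. The following 4 stretches were picked by outcome, since let-7b-5p and let-7c-5p had the largest of these differences and let-7e-5p the smallest.
let-7b: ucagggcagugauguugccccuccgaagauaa
let-7c-2: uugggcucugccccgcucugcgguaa
let-7c-1: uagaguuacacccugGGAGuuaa
let-7e: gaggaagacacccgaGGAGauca
A match of these 4 letters is a description of the sequence and is not evidence of binding.

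The libraries held 166804 to 1768825 microRNA reads, with the fewest in the E12.5 PGC libraries of females (166804) and males (184174). Deposited values are read counts divided by 1 size factor per library, and these factors did not follow the number of reads: 1.58 for the female E12.5 PGC library and 0.820 for the female E11.5 SC library, which holds the most reads. The deposited values therefore sum to 105730 to 897730 in PGC libraries and to 695210 or more in SC libraries. Levels are given below as reads per 1000000 microRNA reads (RPM), and each test is given on both scales, the deposited one and RPM. A 12-member list of the miR-290 to miR-295 cluster, which is made in pluripotent cells and PGCs, summed to 2329 RPM in the female E11.5 PGC library, 70430 RPM in the male one and 96611 to 140986 RPM in the 4 later PGC libraries, against 244 to 5994 RPM in SC libraries. Its 12 members were all detected in 5 of the 6 PGC libraries, whereas 3 were at 0 in the female E11.5 PGC library (miR-290a-3p, miR-294-5p and miR-295-5p) and 2 to 5 in SC libraries. A 9-member list of mesenchymal microRNAs (miR-199, miR-214, miR-143 and miR-145) summed to 85852 RPM in the female E11.5 PGC library, 59929 RPM in the male one and 8405 to 27432 RPM in the later ones, against 71700 to 118895 RPM in SC. The female E11.5 PGC library thus stood apart from the other PGC libraries and close to SC in both lists. The male E11.5 PGC library lay between the later PGC libraries and SC in both lists. Tests of the members and of the microRNAs in their clusters, mean levels over the PGC libraries and correlations over all libraries are also given without the female E11.5 PGC library. E11.5 PGC is then the male library alone. Tests of the 3p arms and let-7k and means of a single stage are not. A pair of endothelial microRNAs (miR-126a) summed to 51442 and 27782 RPM in the female and male E11.5 PGC libraries and to 4670 to 11230 RPM in the later ones, against 16088 to 37105 RPM in SC. miR-122-5p, a liver microRNA, had 4280 and 2015 RPM in E11.5 PGC libraries and 0 to 43.4 RPM in later ones, against 0 to 3023 RPM in SC. Lists of 3 muscle and 4 erythroid microRNAs summed to at most 1229 and 1663 RPM in a PGC library and 1498 and 2197 RPM in an SC library. These PGC maxima were in the female E11.5 library. The male E11.5 PGC library had 913 and 774 RPM, and the later PGC libraries 0 to 55.8 and 32.6 to 186 RPM. In pooled cells, fewer cells of a type and less RNA per cell cannot be told apart.

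The let-7 family took a larger share of microRNA reads on each later day in both cell types and both sexes, and the shares reached 2.92% in germ cells and 5.39% in somatic cells. In PGC, the 9 members together made up 1.88%, 2.24% and 2.92% of microRNA reads in females from E11.5 to E13.5, and 1.49%, 1.96% and 2.08% in males. The SC shares on the same days were 1.81%, 3.51% and 5.39% in females and 1.29%, 3.24% and 4.74% in males. Both E13.5 SC libraries lay above every other library, and both E11.5 SC libraries lay within or below the range of PGC. The exact 95% Clopper-Pearson interval was widest for the female E12.5 PGC library, from 2.17% to 2.31%. These intervals cover counting error only, and each share is that of a single library. As a single item the family would rank from 6 to 19 among the microRNAs of a PGC library, and over the 3 days of SC it would rank 16, 6 and 2 in females and 20, 7 and 3 in males. At equal totals the mean family level at E13.5 was 1.48 times that at E11.5 in PGC (1.55 in females and 1.39 in males) and 3.27 times in SC (2.98 in females and 3.69 in males). On the deposited scale the direction turned in female PGC, with a factor of 0.673 in females, 1.36 in males and 0.843 for the mean of both, where SC had factors of 2.03, 8.97 and 3.32.

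**Figure D1:**
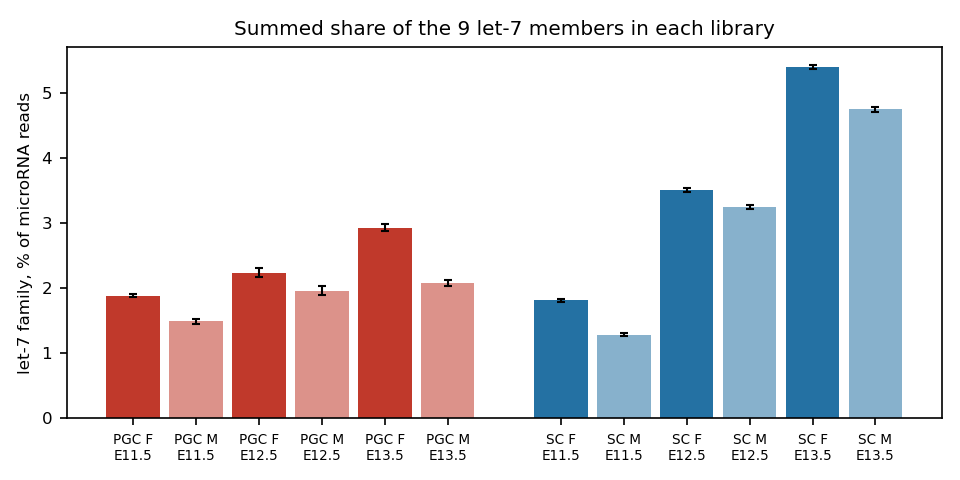
Share of microRNA reads taken by the 9 let-7 members in each library (y axis, percent), with PGC libraries in red on the left, SC libraries in blue on the right, females (F) in full and males (M) in pale colour; black bars are exact 95% Clopper-Pearson intervals for counting error. The PGC bars lie between 1.49% and 2.92%, and the SC bars reach 5.39% in females and 4.74% in males at E13.5.

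In somatic cells most members were higher at E13.5 than at E11.5, and let-7b-5p and let-7c-5p rose most. At equal totals (RPM), 7 of the 9 members were higher at E13.5 than at E11.5, where 6.63% of the 513 microRNAs tested were called higher (limma, Benjamini-Hochberg adjusted p under 0.05). On the deposited scale 3 members were called (let-7a-5p, let-7b-5p and let-7c-5p), where 8.38% of the 513 were called higher. All 9 differences were positive on both scales, and the members' median log2 difference was 1.85 at equal totals and 2.21 on the deposited scale, against medians of -0.34 and -0.01 over all microRNAs tested.

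let-7b-5p, which in mouse neural stem cells acts on Hmga2 and Tlx, had 589 RPM in the female and 636 RPM in the male SC library at E13.5, against 27.1 and 39.3 RPM at E11.5, and stood at 196 and 209 RPM at E12.5. The E11.5 values rest on 48 and 24 reads and the E13.5 values on 997 and 661 reads. The mean level at E13.5 was 18.5 times that at E11.5, a log2 difference of 4.19 ± 0.42 (SE, limma, adjusted p = 0.0030). let-7c-5p, which differs from let-7b-5p by the single base given above, had 11695 and 11165 RPM in female and male SC at E13.5, against 2208 and 1829 RPM at E11.5, with 6368 and 6578 RPM at E12.5. It became the most abundant member of both E13.5 SC libraries, and its log2 difference was 2.51 ± 0.24 (adjusted p = 0.0030).

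let-7a-5p, whose sequence is that of the founding Caenorhabditis elegans microRNA, had 7186 and 5554 RPM in female and male SC at E13.5, against 1690 and 1549 RPM at E11.5 (log2 difference 1.96 ± 0.25, adjusted p = 0.0087). let-7f-5p had 8498 and 8518 RPM at E13.5 and 2776 and 1975 RPM at E11.5 (1.86 ± 0.24, adjusted p = 0.0087). let-7d-5p had 1179 and 814 RPM at E13.5 and 280 and 262 RPM at E11.5 (1.85 ± 0.34, adjusted p = 0.0223). These members have hairpins in the chromosome 13 cluster, let-7a-5p and let-7f-5p each with a further hairpin elsewhere. Their mean levels rose by factors close to each other, 3.93, 3.58 and 3.67. A relation between this closeness and the cluster was not tested. let-7i-5p, outside that cluster, rose by 3.09. let-7b-5p and let-7c-5p, with hairpins in the chromosome 15 cluster, rose by 18.5 and 5.66. let-7i-5p and let-7g-5p are made from single hairpins with no let-7 neighbour. let-7i-5p had 8908 and 7117 RPM in female and male SC at E13.5, against 3229 and 1963 RPM at E11.5 (1.66 ± 0.34, adjusted p = 0.0292). let-7g-5p had 10180 and 5853 RPM at E13.5, against 3792 and 2333 RPM at E11.5 (1.38 ± 0.31, adjusted p = 0.0419). For each of the 7 called members both E13.5 SC libraries lay above both E11.5 ones. How often other microRNAs had this order was not counted. The order rests on the same values as the calls and adds no evidence to them.

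let-7e-5p and miR-98-5p did not pass the test in SC. let-7e-5p had 5305 and 7535 RPM in female and male SC at E13.5, against 3972 and 2830 RPM at E11.5, and both E12.5 libraries (6719 and 6622 RPM) lay above the female E13.5 one. Its log2 difference of 0.91 ± 0.30 (adjusted p = 0.12) was the smallest of the 9, and its mean level was 1.89 times higher. miR-98-5p had 394 and 212 RPM at E13.5 and 135 and 73.6 RPM at E11.5, a log2 difference of 1.53 ± 0.47 (adjusted p = 0.11). Both later libraries exceeded both earlier ones for each of these members. This order of 2 against 2 libraries was not set against the other microRNAs and does not stand in for the test.

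Leaving out any 1 of the 6 SC libraries left 2 to 4 of the 7 calls at equal totals. There were 2 without the female E11.5 or the male E11.5 library, 3 without the male E13.5 library, and 4 without the female E12.5, male E12.5 or female E13.5 library. let-7b-5p and let-7c-5p were called in each of these 6 fits. On the deposited scale let-7b-5p alone stayed called without the male E11.5 or the male E13.5 library, and in the fit of SC libraries alone. Among the marker lists, the germ-cell list in SC summed to 3627 and 5994 RPM at E13.5 and 336 and 244 RPM at E11.5, and the mesenchymal list to 107747 and 71700 RPM at E13.5 and 118895 and 91296 RPM at E11.5. Of the germ-cell list, miR-290a-3p and miR-295-5p were at 0 in both E13.5 SC libraries, and the part of these lists in the let-7 values was not tested.

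In germ cells let-7b-5p passed the test over the same interval at equal totals and 0 members passed it on the deposited scale. let-7b-5p was the 1 member of 9 called higher in PGC at E13.5 than at E11.5 at equal totals, where 7.41% of microRNAs were called higher. It had 184 and 86.7 RPM in female and male PGC at E13.5, against 34.4 and 16.2 RPM at E11.5, resting on 79 and 34 reads and on 42 and 7 reads. The log2 difference was 2.37 ± 0.42 (limma, adjusted p = 0.0069) and was 2.37 without the female E11.5 PGC library (adjusted p = 0.035); without both E11.5 female libraries it was no longer called (adjusted p = 0.071). Within each sex the later library was the higher one, by 5.34 times in females and 5.36 times in males.

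The remaining 8 members in PGC had log2 differences of 0.27 to 0.83 at equal totals, positive in both sexes for every member. Of all 9 members, 4 had an unadjusted p under 0.05, as did 39% of the 513 microRNAs tested. The 8 differences were positive and at least 0.47 without the female E11.5 PGC library, and only let-7b-5p had an unadjusted p under 0.05. let-7f-5p, for example, had 6059 and 4584 RPM in female and male PGC at E13.5, against 3556 and 2867 RPM at E11.5 (log2 difference 0.72 ± 0.24, adjusted p = 0.069). let-7e-5p had 5025 and 4438 RPM at E13.5 and 4752 and 3225 RPM at E11.5 (0.27 ± 0.30, adjusted p = 0.56). let-7c-5p had 3570 and 2062 RPM at E13.5 and 2132 and 1358 RPM at E11.5 (0.67 ± 0.24, adjusted p = 0.083), and its female E12.5 library at 4460 RPM was its highest in PGC. On the deposited scale 0 of the 9 members were called by limma, with 0 at an unadjusted p under 0.05. On that scale 7.8% of microRNAs were called higher and 38.2% had an unadjusted p under 0.05. limma-voom on the recovered reads, which works at equal totals, and limma after quantile normalization each called let-7b-5p. limma with median-of-ratios size factors called 4 (let-7a-5p, let-7b-5p, let-7c-5p and let-7f-5p). The shares of all microRNAs called higher under these alternatives are not given here, so the 4 calls have no background. The members' median was 0.67 at equal totals and 0.05 on the deposited scale, against -0.41 and -0.99 over all microRNAs. Relative to the median microRNA the members thus lay 1.08 and 1.04 higher in PGC, and 2.19 and 2.23 higher in SC, on the log2 scale at equal totals and on the deposited scale. Over the same interval the germ-cell list in PGC summed to 96611 and 117827 RPM in female and male libraries at E13.5 and to 2329 and 70430 RPM at E11.5, and the mesenchymal list to 27432 and 8405 RPM at E13.5 and 85852 and 59929 RPM at E11.5; their part in the let-7 values was not tested.

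**Figure D2:**
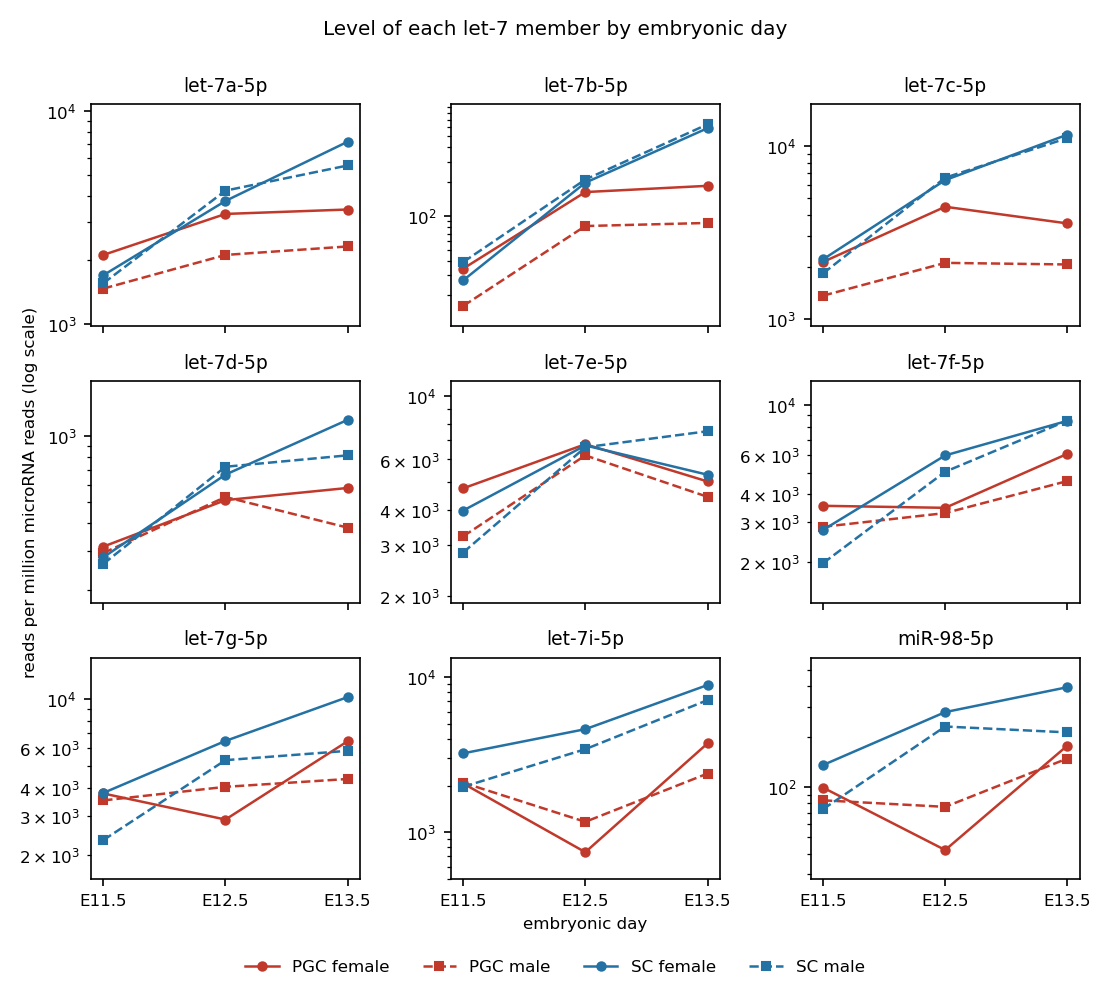
Level of each let-7 member (y axes, RPM, log scale, each panel with its own range) on embryonic days 11.5, 12.5 and 13.5, with PGC in red, SC in blue, females as circles on full lines and males as squares on dashed lines; each point is 1 library. The blue lines of let-7b-5p and let-7c-5p climb farthest from the red ones. The red and blue lines of let-7d-5p, let-7e-5p and let-7f-5p cross in each sex, and let-7i-5p and miR-98-5p dip in PGC at E12.5.

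let-7i-5p and miR-98-5p had their lowest PGC values at E12.5. let-7i-5p, which acts on the Toll-like receptor TLR4 in human cholangiocytes, had 2064 and 2089 RPM in female and male PGC at E11.5, 743 and 1167 RPM at E12.5, and 3742 and 2391 RPM at E13.5. miR-98-5p had 99.1 and 83.2 RPM at E11.5, 42.0 and 76.0 RPM at E12.5, and 177 and 148 RPM at E13.5, the E12.5 values resting on 7 and 14 reads. In SC both members were higher at E12.5 than at E11.5 in each sex. The E12.5 PGC libraries are the shallowest, and the part of depth in this dip was not tested; the let-7i-5p values there rest on 124 and 215 reads.

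The change in PGC was set against that in SC in the same fit. The change was lower in PGC than in SC for all 9 members on both scales, by log2 0.64 to 1.83 at equal totals. On the deposited scale the PGC change itself was negative for let-7e-5p (-0.35), let-7g-5p (-0.07) and let-7i-5p (-0.09). Of the 9 differences between PGC and SC, 0 were called by limma on either scale. Over all microRNAs, 0% were called at equal totals and 0.78% on the deposited scale. At an unadjusted p under 0.05 there were 5 members at equal totals, where 21.1% of microRNAs were, and 3 on the deposited scale, where 19.9% were; limma-voom called 0. These counts were 4 and 0 without the female E11.5 PGC library, and 0 were called on either scale. let-7c-5p came nearest, with a log2 difference of -1.83 ± 0.34 (adjusted p = 0.076), followed by let-7a-5p at -1.28 ± 0.35 (adjusted p = 0.11). The members' median was -1.14 at equal totals, against -0.42 over all microRNAs. The difference was negative for 311 of the 513 microRNAs at equal totals and for 405 on the deposited scale. At equal totals a smaller increase in PGC is therefore seen in the values of every member, for miR-98-5p with an error near its size (-0.70 ± 0.66). A different course of the family in germ and somatic cells is not shown by the test.

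**Figure D3:**
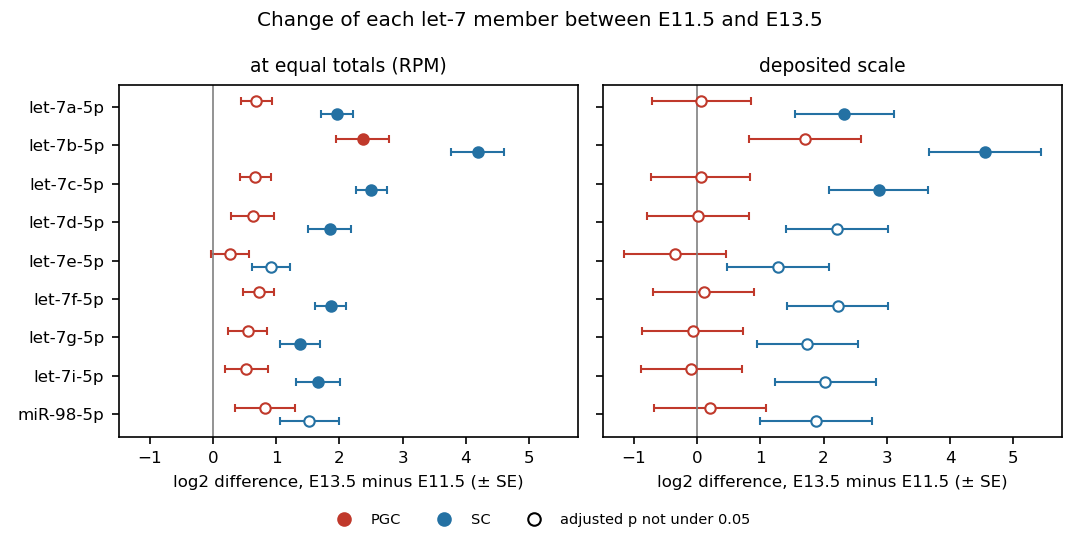
Log2 difference between E13.5 and E11.5 for each member (x axes, with SE from limma) in PGC (red) and SC (blue), at equal totals on the left and on the deposited scale on the right; filled points have an adjusted p under 0.05. At equal totals 7 SC points and 1 PGC point are filled, on the deposited scale 3 SC points, and every SC point lies to the right of its PGC point.

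Between the cell types, how many members were lower in germ cells depended on the scale. At equal totals 2 of the 9 members were lower in PGC than in SC over the 6 pairs of stage and sex, where 25.5% of microRNAs were called lower; these were let-7c-5p and let-7i-5p. On the deposited scale all 9 were lower, where 77.2% of microRNAs were called lower, so the count at neither scale sets the family apart from the rest; the sign of let-7e-5p was positive by quantile normalization (0.12) and by median-of-ratios size factors (0.011). The median log2 difference of the members was -0.55 at equal totals and -2.78 on the deposited scale, against -0.74 and -2.57 over all microRNAs. Bringing libraries to equal totals moved the median of all microRNAs by 1.83 on the log2 scale and turned 36 calls higher and 396 lower in PGC into 69 higher and 131 lower.

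let-7i-5p had the largest difference at equal totals, -1.26 ± 0.34 (log2, adjusted p = 0.018), and was lower in PGC in 5 of 6 pairs. In SC it had 3229 and 1963 RPM in females and males at E11.5, 4624 and 3435 RPM at E12.5, and 8908 and 7117 RPM at E13.5, so the PGC values above overlapped those of E11.5 SC. let-7c-5p was lower in PGC in 6 of 6 pairs, by -1.13 ± 0.34 (adjusted p = 0.028). Its ratio of PGC to SC over the 3 days was 0.966, 0.700 and 0.305 in females and 0.743, 0.320 and 0.185 in males. let-7b-5p and miR-98-5p had values of -1.18 ± 0.52 and -1.04 ± 0.48, with a larger error, and did not pass the test (adjusted p = 0.089 and 0.10). let-7a-5p, let-7d-5p, let-7f-5p and let-7g-5p lay between -0.31 and -0.55.

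let-7e-5p had the smallest difference between the cell types at equal totals, with a log2 value of -0.08 ± 0.25 (adjusted p = 0.81) and PGC lower in 3 of 6 pairs. It had 4752 and 3225 RPM in female and male PGC at E11.5, 6786 and 6201 RPM at E12.5, and 5025 and 4438 RPM at E13.5, and its SC values were 3972 and 2830, 6719 and 6622, and 5305 and 7535 RPM at the same stages. The ranges of PGC and SC overlapped for all 9 members.

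The summed family followed the same course, with PGC at 1.04, 0.637 and 0.542 times SC in females over the 3 days and at 1.16, 0.605 and 0.438 times in males. The mean over the 6 libraries was 20954 ± 4766 RPM in PGC and 33294 ± 15984 RPM in SC (SD, n = 6 each), and 21379 ± 5201 RPM in PGC without the female E11.5 library (SD, n = 5). The female E11.5 pair, whose PGC library stood apart by its markers, was one of the 2 pairs in which the family sum was not lower in PGC at equal totals, and the male E11.5 pair was the other. The sum of deposited values was lower in PGC in 6 of 6 pairs, at 0.433, 0.0444 and 0.143 times SC in females over the 3 days and at 0.617, 0.0645 and 0.0938 times in males. Without the female E11.5 pair 3 members were called lower at equal totals (let-7b-5p, let-7c-5p and let-7i-5p). Without both E11.5 PGC libraries 6 were called, all but let-7b-5p, let-7d-5p and let-7e-5p. The shares of all microRNAs called lower in these fits are not given here, so these counts do not set the family apart. No member was called at equal totals without the female E12.5, the male E12.5 or the male E13.5 pair, and 1, let-7i-5p, without the female E13.5 pair. Without the pair block 0 were called at equal totals, and without both E13.5 SC libraries 0 were called at equal totals and 5 on the deposited scale. The mesenchymal list in PGC summed to 8405 to 27432 RPM at the later stages, against 85852 and 59929 RPM in females and males at E11.5, and its part in the ratios was not tested.

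**Figure D4:**
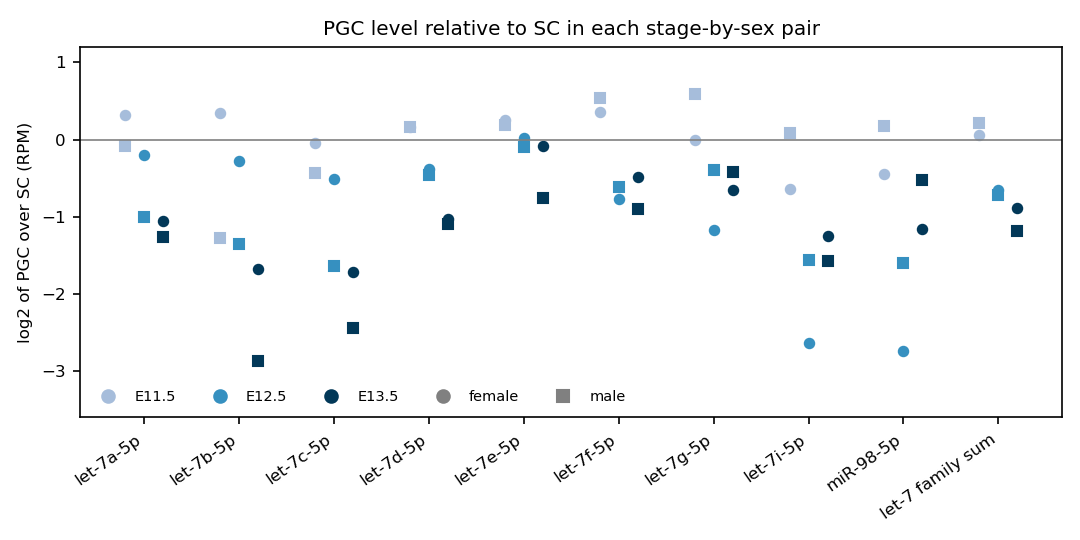
Log2 ratio of PGC over SC in RPM (y axis) for each let-7 member and their sum in the 6 pairs of stage and sex, from pale (E11.5) to dark (E13.5), females as circles and males as squares. All 6 points of let-7c-5p lie below 0, the male E13.5 point of let-7b-5p (a ratio of 0.136) is the lowest in the plot, and the points of let-7e-5p lie on both sides of 0.

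The make-up of the family was described as each member's share of the 9 members' reads, which the scale does not touch. let-7e-5p made up 24.6% ± 5.6 of the family in PGC and 18.2% ± 4.7 in SC (SD, n = 6 each), and its share was higher in PGC in 5 of 6 pairs. Without the female E11.5 PGC library the PGC shares were 24.4% ± 6.3 for let-7e-5p, 12.4% ± 4.4 for let-7c-5p and 9.52% ± 4.6 for let-7i-5p (SD, n = 5). The mean share of let-7e-5p in PGC was 23.4%, 31.0% and 19.3% over the 3 days, and in SC it was 22.0%, 19.8% and 12.9%. let-7c-5p made up 12.2% ± 3.9 in PGC and 18.4% ± 4.4 in SC, with stage means of 10.2%, 15.3% and 11.1% in PGC and 13.2%, 19.2% and 22.6% in SC. let-7b-5p stayed a minor member, with stage means of 0.146%, 0.570% and 0.522% in PGC and 0.228%, 0.601% and 1.22% in SC. let-7i-5p had a lower share in PGC than in SC in 6 of 6 pairs, 12.5%, 4.64% and 12.2% by stage in PGC and 16.6%, 11.9% and 15.8% in SC.

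**Figure D5:**
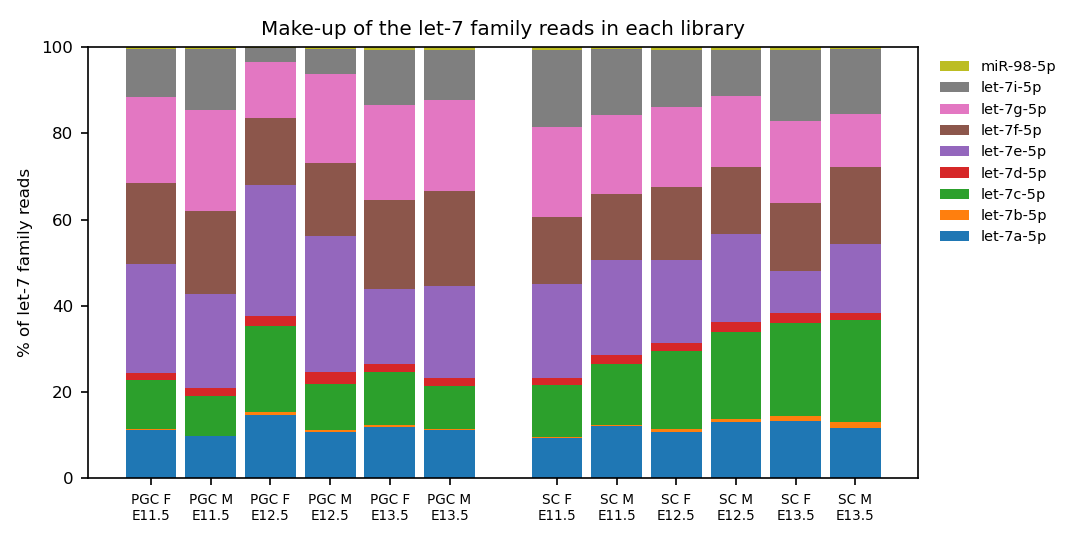
Percent of the let-7 family reads taken by each member in each library (stacked bars that add up to 100%), with PGC on the left and SC on the right, females (F) before males (M) within each day. The let-7c-5p band widens and the let-7e-5p band narrows in SC by E13.5, and the let-7i-5p band is narrowest in the E12.5 PGC libraries.

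Ordered by mean level, the members fell into an abundant set of 6 and a scarce set of 3 in both cell types. In PGC the order was let-7e-5p (5071 ± 1275 RPM), let-7g-5p (4175 ± 1229), let-7f-5p (3975 ± 1167), let-7c-5p (2615 ± 1157), let-7a-5p (2453 ± 764), let-7i-5p (2033 ± 1045), let-7d-5p (434 ± 120), miR-98-5p (104 ± 50) and let-7b-5p (94 ± 67; mean and SD of 6 libraries). Neighbours among the first 6 overlapped in range, as did miR-98-5p and let-7b-5p, whereas let-7i-5p and let-7d-5p did not, nor did let-7d-5p and miR-98-5p. The order in PGC without the female E11.5 library was the same but for the last pair, let-7b-5p (106 RPM) and miR-98-5p (105 RPM). In SC the order began with let-7c-5p (6640 ± 4217 RPM), let-7g-5p (5659 ± 2677), let-7e-5p (5497 ± 1810), let-7f-5p (5462 ± 2770), let-7i-5p (4879 ± 2631) and let-7a-5p (3998 ± 2191). It ended with let-7d-5p (654 ± 346), let-7b-5p (283 ± 267) and miR-98-5p (221 ± 112), and there only let-7a-5p and let-7d-5p did not overlap. The member in first place was let-7e-5p in 3, let-7g-5p in 2 and let-7f-5p in 1 of the PGC libraries, and let-7e-5p in 4 and let-7c-5p in 2 of the SC libraries. All members have 22 bases, so these levels need no correction for length, but how well each sequence is captured in a library is not known.

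Across the 12 libraries, the log2 level of a member and the log2 sum of the other 8 had a Pearson correlation of 0.97 for let-7a-5p, 0.95 for let-7d-5p, 0.94 for let-7f-5p, 0.93 for let-7b-5p, 0.92 for let-7c-5p and 0.85 for let-7g-5p. It was 0.79 for miR-98-5p, 0.67 for let-7i-5p and 0.65 for let-7e-5p, the lowest of the 9. Without the female E11.5 PGC library these values ran from 0.65 for let-7e-5p to 0.96 for let-7a-5p. These values are a description over 12 libraries that share their totals and, in near-identical members, possibly reads.

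No member was called between the sexes. In PGC, 0 of 9 were called on either scale, where 0% of microRNAs were called at equal totals and 0.39% on the deposited scale (limma, higher or lower). At an unadjusted p under 0.05 there were 3 members at equal totals, where 16.2% of microRNAs were, and 0 on the deposited scale, where 9.94% were; limma-voom called 0. Those 3 were higher in female than in male PGC at 3 of 3 stages, with log2 differences at equal totals of 1.03 ± 0.34 for let-7b-5p (adjusted p = 0.27), 0.84 ± 0.20 for let-7c-5p (adjusted p = 0.23) and 0.58 ± 0.20 for let-7a-5p (adjusted p = 0.27). let-7c-5p had 2132, 4460 and 3570 RPM in female PGC over the 3 days, and 1358, 2107 and 2062 RPM in male PGC. The remaining 6 members ranged from -0.11 to 0.29. Without the female E11.5 PGC library the 3 differences were 1.03, 0.94 and 0.61, and let-7a-5p no longer had an unadjusted p under 0.05. In SC, 0 of 9 were called on either scale, where 0% of microRNAs were called at equal totals and 1.17% on the deposited scale; 0 had an unadjusted p under 0.05 on either scale, where 4.29% and 8.19% of microRNAs did, and limma-voom called 0. The SC differences ranged from -0.24 to 0.68 at equal totals. The standard errors of these differences at equal totals ran from 0.20 to 0.38 in both cell types, with 3 libraries of each sex.

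The table lists 9 other let-7 and miR-98 rows, 8 of them 3p arms (from the opposite arm of the hairpin) and 1 named let-7k, which has the seed GAGGUAG. They were scarce: let-7d-3p ranged from 20.8 to 119.9 RPM over the 12 libraries, let-7e-3p from 36.2 to 85.1 RPM and let-7k from 14.7 to 68.8 RPM, and the other 6 were at 0 in at least 5 libraries. let-7a-1-3p and let-7c-2-3p held the same reads in every library, as their mature sequences are the same, and count as 1 measurement. They and 4 more rows passed the filter on low values, which gives 5 measurements, and 0 of the 5 were called by limma at equal totals in any of the 6 comparisons. On the deposited scale 5 of the 5 were lower in PGC than in SC, where 77.2% of microRNAs were; their median log2 difference was -2.27, against -2.57 over all microRNAs. In the other comparisons on that scale 0 were called. At an unadjusted p under 0.05 there were 0 or 1 of the 5 in each comparison at equal totals, and 0 or 1 in each of those other comparisons on the deposited scale. Between E13.5 and E11.5 SC at equal totals, the 3p arms of let-7d and let-7e had log2 differences of 0.37 ± 0.61 and -0.51 ± 0.55 (SE). The differences of let-7d-5p and let-7e-5p were 1.85 ± 0.34 and 0.91 ± 0.30, and the arms were not tested against each other. The other measurements were 2.65 ± 1.38 for let-7a-1-3p and let-7c-2-3p, 1.496 ± 0.694 for let-7k and -1.95 ± 2.22 for let-7c-1-3p (SE).

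The microRNAs known to lie in the same clusters as let-7c, let-7e and let-7a, namely miR-99a-5p, miR-99b-5p, miR-100-5p, miR-125a-5p and miR-125b-5p, were tested beside them. Of these 5, 0 were called between E13.5 and E11.5 SC on either scale by limma, with 1 at an unadjusted p under 0.05 at equal totals and 0 on the deposited scale, where 24.4% and 17.5% of microRNAs were. In PGC, 2 were lower at E13.5 at equal totals, miR-100-5p (log2 difference -1.93, adjusted p = 0.042) and miR-99a-5p (-1.08, adjusted p = 0.014), and 1, miR-100-5p, was lower on the deposited scale; 21.4% and 25.1% of microRNAs were called lower there. None of these calls held without the female E11.5 PGC library (miR-100-5p at adjusted p = 0.17 and miR-99a-5p at adjusted p = 0.13 at equal totals). Against SC, 3 of the 5 were lower in PGC at equal totals (miR-99a-5p, miR-100-5p and miR-125b-5p), where 25.5% of microRNAs were, and all 5 on the deposited scale, where 77.2% were. The same counts were called without the female E11.5 pair. The ratio of let-7c-5p to its neighbour miR-99a-5p was 6.78%, 22.9% and 30.0% in female PGC over the 3 days and 9.14%, 17.5% and 23.4% in male PGC. The SC ratios were 8.06%, 14.5% and 37.3% in females and 5.13%, 13.8% and 30.0% in males. The ratio was thus higher at E13.5 than at E11.5 in both cell types and both sexes. let-7c-5p also has a second hairpin away from Mir99a, so the ratio is not that of 1 transcript. The ratio of let-7a-5p to miR-100-5p was likewise higher at E13.5, at 141% and 205% in female and male PGC and 69.6% and 238% in SC, against 24.2% and 31.8% in PGC and 21.3% and 15.0% in SC at E11.5. The ratio of let-7e-5p to miR-125a-5p was lower at E13.5 in 3 of the 4 cases, at 40.9% and 27.1% in female and male PGC and 50.6% in female SC, against 45.7%, 39.1% and 63.0% at E11.5, and higher in male SC (54.9% against 16.5%). That of let-7e-5p to miR-99b-5p was higher at E13.5 in all 4 cases, at 31.1% and 18.9% in female and male PGC and 26.5% and 31.2% in SC, against 16.0% and 15.4% in PGC and 18.1% and 4.66% in SC at E11.5. That of let-7c-5p to miR-125b-5p was higher as well, at 47.9% and 50.0% in PGC and 52.5% and 62.3% in SC, against 19.0% and 21.7% in PGC and 26.4% and 12.2% in SC.

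Among the 323 other microRNAs with a mean deposited value of at least 50, miR-202-5p had the course most like that of the family sum, with a Pearson correlation of log2 levels of 0.96 over the 12 libraries (0.92 over the 6 of PGC and 0.97 over the 6 of SC, and 0.96 over the 11 libraries left without the female E11.5 PGC one). miR-202 is made in the somatic cells of the gonad and is known in mouse as a target of SOX9 in the testis. Its 5p arm had 258 and 155 RPM in female and male PGC at E11.5, 462 and 619 RPM at E12.5, and 2982 and 997 RPM at E13.5. In SC it had 226 and 136 RPM at E11.5, 2909 and 5097 RPM at E12.5, and 8436 and 16334 RPM at E13.5. Next came miR-672-5p (0.84), miR-26a-5p (0.80), miR-107-3p (0.79) and miR-202-3p (0.78). Without the female E11.5 PGC library these values were 0.84, 0.79, 0.81 and 0.77. Bases 2 to 7 of miR-202-3p are those of let-7, and its base 8 differs. The libraries share totals and stages, and these 5 were picked by the correlation itself, so it is a description with no test.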

How the data were processed

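Small RNAs shorter than 100 bases were sequenced from 12 libraries, grouped by the labels into PGC and SC of each sex and day. Per the submitters' processing notes, the authors used FastQC, Trim Galore, Bowtie 1.1.2, the GRCm38 build and DESeq; the counting step and the microRNA annotation were not given in the sources used here. Values as deposited are a normalized signal, which the authors made from read counts with 1 size factor per library. Within a library, each value was 0 or a whole multiple (to within 1e-06) of 1 step, and the smallest was 5 steps, so reads and factors were taken back from them; 1797 of 7392 values were 0, which is read as under 5 reads (2.83 to 29.98 RPM). Intervals and this floor cover counting error only, since PCR reads are not independent molecules.

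Values were tested as log2(value + 1) with limma 3.58.1 in R 4.3.3, with empirical Bayes moderation and a trend, for the 513 microRNAs with a mean deposited value of at least 5, on the deposited scale and as RPM, and p-values were adjusted over all 513 (Benjamini-Hochberg, 0.05). A log2 difference with the added 1 understates the change of low values. PGC and SC were compared with the stage-by-sex pair as a block (5 residual degrees of freedom), which the labels do not tie to the same gonads. Within a cell type, stage and sex were additive, in 1 model of 12 libraries (4 residual degrees of freedom). Shares of reads carry exact Clopper-Pearson intervals. The scripts were tested on simulated data. The members, marker lists and alternatives were chosen with earlier results of these data known. Named are all 9 members, the other let-7 rows of highest mean, 5 clustered partners and the 5 microRNAs most alike in course. Alternatives were other scales, pseudocounts and filters, no pair block, libraries left out, and limma-voom.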

Additional observations from a re-analysis of the deposited data

How the results depend on the processing

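The scale moved the count of called members in 3 of the 6 comparisons. Shares of all microRNAs called are given above only for the deposited scale and RPM as first tested, not for the alternatives. For PGC against SC the deposited scale called 9, and RPM, quantile normalization, median-of-ratios size factors and limma-voom on recovered reads called 2 each; 5 were called without both E13.5 SC libraries. For PGC E13.5 against E11.5 the counts were 0 on the deposited scale, 1 by RPM, quantile normalization and limma-voom, and 4 by median-of-ratios factors. For SC E13.5 against E11.5 they were 3 on the deposited scale, 7 under each of these 4 settings, 5 with a pseudocount of 5, 1 with SC libraries alone, and 1 to 4 with 1 library left out. At equal totals (RPM), the 2 calls of PGC against SC became 0 without the pair block, 0 to 3 with 1 pair left out, 0 without both E12.5 PGC or both E13.5 SC libraries, and 6 without both E11.5 PGC libraries. Without both E11.5 female libraries the PGC stage count at equal totals was 0 (let-7b-5p at adjusted p = 0.071) and the SC stage count 2; with 1 SC library left out, that SC count was 2 to 4. The log2 ratio of the family in PGC over SC was -0.53 as a share of reads and -2.76 as a sum of deposited values. The counts for the difference of changes and for both sex comparisons were 0 under every alternative run.

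Of the reversed signs, only that of let-7e-5p in PGC against SC on the deposited scale (-2.31) was of a called difference, and the cause was not tested for any. let-7e-5p, PGC against SC, was 0.12 by quantile normalization and 0.011 by median-of-ratios factors, and at equal totals 0.092 without both E13.5 SC libraries and -0.15 to 0.058 with 1 pair left out. For PGC E13.5 against E11.5 on the deposited scale, let-7i-5p, let-7e-5p and let-7g-5p became positive by RPM (0.53, 0.27, 0.55), quantile normalization (0.77, 0.26, 0.75), median-of-ratios factors (0.84, 0.59, 0.87), limma-voom (0.54, 0.25, 0.55) and without both E11.5 female libraries (0.63, 0.59, 0.69). With 1 library left out, that comparison ranged from -0.82 to 0.63 for let-7i-5p, -1.28 to 0.59 for let-7e-5p, -0.84 to 0.69 for let-7g-5p, -0.75 to 1.16 for miR-98-5p, -0.63 to 0.65 for let-7d-5p, -0.66 to 0.87 for let-7f-5p, -0.54 to 0.64 for let-7c-5p and -0.63 to 0.76 for let-7a-5p. The planned edgeR test was not run, as the deposited values hold no read counts as such, and limma-voom was added after seeing the data, as were median-of-ratios factors, leaving out both E11.5 female libraries, and levels, shares, correlations and partner tests without the female E11.5 PGC library. Depth limits let-7b-5p and miR-98-5p most, which rest on 7 reads in 1 PGC library each. No analysis paired by replicate number was made, since every library is replicate 1 of its group; the pair block is that of stage and sex.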
